A study of Homo sapiens with 8 samples.

Results

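The histone genes were followed in DLD1 cells through every array probe that was not a control and whose gene symbol began with HIST1H, HIST2H, HIST3H, HIST4H, H2AF or H3F3, or was H1F0, H1FX or H1FNT. These were 105 of the 50599 probes and stood for 83 of the 36337 gene names on the array. Of them, 84 probes of 70 genes belonged to the replication-dependent histone clusters and 21 probes of 13 genes to the replication-independent variants. The symbols are those of the array design, and 101 of the 105 probes could be matched to a current symbol through their transcript.

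DLD1 is an established human colorectal cancer line with many methylated CpG islands. Its cells received a control siRNA (siCONT) or 1 of 2 siRNAs against UHRF1 (siUHRF1-1 and siUHRF1-2), an E3 ubiquitin ligase that binds hemimethylated CpG sites. After 48 h the histone deacetylase inhibitor trichostatin A (TSA, 300 nM) or ethanol (mock) was added for 24 h. This gave 4 groups of 2 one-colour arrays: siCONT with mock, siUHRF1 with mock, siCONT with TSA and siUHRF1 with TSA. All cells were transfected, and in a siUHRF1 group the arrays carried the 2 different siRNAs, so that their spread is that between siRNAs.

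Nucleosomes hold pairs of the core histones H2A, H2B, H3 and H4, and H1 binds the linker DNA. The cluster genes supply these proteins during DNA replication. They have no introns, and their mRNAs usually end in a conserved stem-loop, bound by SLBP, in place of a poly(A) tail. The variant genes are transcribed outside replication too, and their mRNAs are polyadenylated. Some cluster genes can also give a longer, polyadenylated transcript that runs past the stem-loop. The labelling kit primes RNA with oligo-dT, so the signal of a cluster probe depends on the share of its RNA that carries a poly(A) tail as well as on the amount of RNA. These cannot be told apart here, nor can fewer cells that transcribe a gene and less RNA per cell.

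The stem-loop shows where a probe lies on a cluster transcript. A stem-loop consensus was found in 6 of the 84 cluster probes, in 0 of the 21 variant probes and in 7 of all 50599 probes (0.0138%) on the sense strand, and in 0 on the antisense strand. The windows are printed here 5′ to 3′ because these probes read the normal end of the mRNA, with the consensus in capitals.
HIST1H2BF, chr6:26200191-26200212 (hg19, plus strand): ccaaaGGCTCTTTTAAGAGCCa
HIST1H2BE, chr6:26184433-26184458 (hg19, plus strand): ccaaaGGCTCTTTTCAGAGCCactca
HIST1H2AI, chr6:27776420-27776445 (hg19, plus strand): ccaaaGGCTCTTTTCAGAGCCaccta
HIST1H3H, chr6:27778289-27778314 (hg19, plus strand): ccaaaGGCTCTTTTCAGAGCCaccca
HIST2H3A, chr1:149824662-149824685 (hg19, plus strand): caaaaGGCTCTTTTCAGAGCCacc
HIST1H4K, chr6:27798954-27798976 (hg19, minus strand): caaaaGGCCCTTTTTAGGGCCcc

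Other probes of the same families read longer transcripts beyond that end, and several results concern such probes. A window of 30 bases of each is given, with the poly(A) signal AATAAA in capitals where the window holds it. AATAAA was found on the sense strand of 5 of the 84 cluster probes (5.95%) and of 7.88% of all probes, and on the antisense strand of 0 and of 3.74%.
HIST1H2AC, chr6:26138822-26138851 (hg19, plus strand), probe from base 1100 of a longer transcript than that of the other HIST1H2AC probes: gcattatgcaaatgcattatattttatgta
HIST2H2BE, chr1:149857094-149857123 (hg19, minus strand), from base 1109: tctcattttgttgataatttctgcatttaa
HIST2H2BF, chr1:149397127-149397156 (hg19, minus strand), from base 1748: tttcttttgccaAATAAAatatacccttgg
HIST1H2BK, chr6:27106221-27106250 (hg19, minus strand), from base 660: ggtccattccttctctctaataatcattta

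H2A and H2B genes often lie head to head and share a promoter, in which H2B promoters are known for an octamer element. The octamer ATTTGCAT, or ATGCAAAT on the other strand, lay in the 300-base promoter (250 bases before to 50 after the start, RefSeq, GRCh38.p14) of 14 of 18 H2B and 11 of 15 H2A cluster genes. It lay in 1 of 11 H3, 0 of 12 H4, 0 of 6 H1 and 1 of 12 variant promoters, against 492 of all 27305 promoters (1.80%). Promoters of 74 of the 82 current symbols were in the table. In 8 pairs an H2A and an H2B gene had the same 8 bases on opposite strands. The windows of 3 pairs described below are printed from the strand of the H2B gene, with the octamer in capitals.
HIST2H2BE, shared with HIST2H2AC, chr1:149886701-149886740 (minus strand): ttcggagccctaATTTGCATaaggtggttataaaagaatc
HIST1H2BF, shared with HIST1H2AD, chr6:26199393-26199432 (plus strand): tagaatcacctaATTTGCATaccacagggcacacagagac
HIST1H2BM, shared with HIST1H2AJ, chr6:27814962-27815001 (plus strand): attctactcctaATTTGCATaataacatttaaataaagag

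A level is the log2 intensity of a probe minus the log2 of its array's 75th percentile, and a change is a difference of group means of such levels. A comparison tested the probes that both arrays of 1 or both groups read well above background. A probe was called where limma gave a Benjamini-Hochberg adjusted p below 0.05 over all probes tested and the change reached 2-fold. The arrays of a siCONT group differed by about the noise between repeated spots (1.06 and 1.16 times it, against 10.4 and 12.7 times for siUHRF1) and were counted as 1 sample in means. The counts of histone probes and of the gene lists are therefore given also from a fit with the siCONT arrays averaged, which leaves 6 samples. An array read 43.3% to 48.0% of all probes well above background. Mock and TSA arrays lay in different rows of 1 slide, so TSA and slide row cannot be told apart. In both rows siCONT lay in columns 1 and 2, siUHRF1-1 in column 3 and siUHRF1-2 in column 4. The siRNA and the slide column thus cannot be told apart either.

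UHRF1 was lower on the siUHRF1 arrays. Its brighter probe read 1.98 and 2.01 in siCONT with mock, 0.34 and -0.02 in siUHRF1 with mock, 1.04 and 1.01 in siCONT with TSA, and -1.55 and -2.14 in siUHRF1 with TSA. All 10 epithelial markers were above background on all arrays. Of 10 markers of other cell types, CD3E, COL1A2, PECAM1 and PTPRC were above background on no array, and the summed linear level of the list ran from 1.90 to 2.10 in siCONT with mock, 1.72 to 1.91 in siUHRF1 with mock, 3.75 to 3.80 in siCONT with TSA and 7.14 to 7.57 in siUHRF1 with TSA. Of this list 2 of 5 tested markers rose with TSA in siCONT cells and 4 of 6 with both treatments, among them VIM, the mesenchymal filament protein vimentin and COL1A1, a collagen chain, while 0 of 3 passed for UHRF1 depletion under mock. After averaging the siCONT arrays the first 2 counts were 1 and 3. Of the epithelial markers, KRT20 and LGALS4 rose with UHRF1 depletion alone (both by 2.94 or more), LGALS4 and VIL1 fell with TSA in siCONT cells (-3.57 and -1.42), and KRT20 rose and LGALS4 fell with both treatments (1.56 and -1.96). Of these epithelial calls the falls of LGALS4 remained with the siCONT arrays averaged. Their part in the histone results was not tested.

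Histone mRNA was widely detected. Of the 84 cluster probes, 70 were well above background on all 8 arrays, 6 on both arrays of some groups only, and 8 on no array. The 8 were the probes of HIST1H1T, HIST1H2BA, HIST1H2APS1, HIST1H4G and HIST2H4A, both probes of HIST2H2BA and 1 of HIST2H2BF. Of the 21 variant probes, 12 were above background on all arrays, 5 on both arrays of some groups, 3 on no array and 1 on a single array. The 6 and 5 probes detected in some groups only could enter a test only through the group in which they were bright, and the counts below contain them.

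TSA alone lowered most of the cluster probes. In siCONT cells 46 of 72 tested cluster probes (63.9%) fell and 0 rose, while 8.21% of all probes tested were called lower and 10.4% higher. The median change was -1.17 for the cluster probes and -0.11 for all 23239 probes tested. Of the 16 variant probes tested 1 fell and 1 rose, with a median of -0.52 (2 fell with median scaling and 0 with the percentile over detected probes). Averaging the siCONT arrays left 4 cluster probes called, all lower, and 1.56% of all probes in either direction. The 4 were HIST1H1B, HIST1H2AG, HIST1H2AL and HIST1H2BF. At an unadjusted p below 0.05 and 2-fold, that fit held 44 of the 72. The larger count thus rests on taking each siCONT array as a sample of its own.

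**Figure D1:**
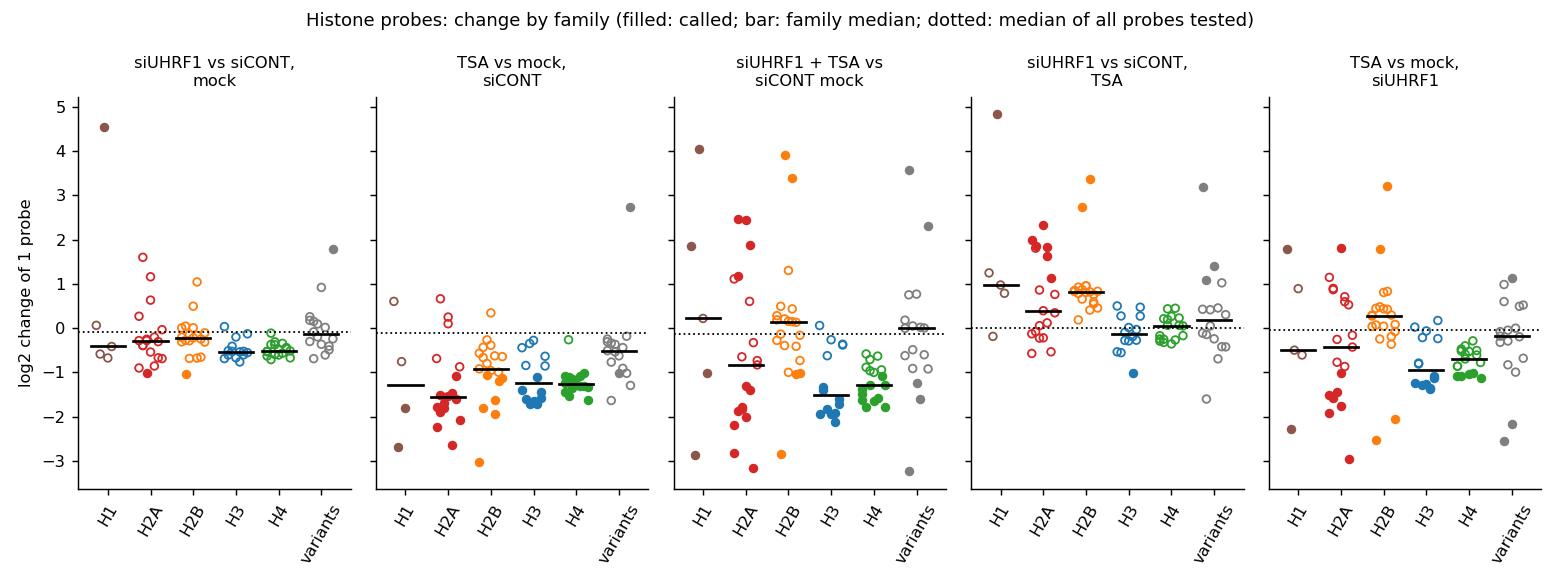
Log2 change of each tested histone probe (y axis) by family (x axis) in 5 comparisons; filled points are called, bars are family medians and the dotted line is the median of all probes tested; points of probes below background in a group are fitted values. With TSA in siCONT cells every H3 and H4 probe lies below 0, while with UHRF1 depletion under TSA all 20 H2B probes lie above 0 (19 of 20 with median scaling).

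By family, of the H4 probes 16 of 17 were called lower (median -1.27), of the H2A probes 13 of 18 (median -1.54), of the H3 probes 8 of 14 (median -1.25), of the H1 probes 2 of 4 (median -1.28) and of the H2B probes 7 of 19 (median -0.92). The 4 calls left after averaging were 2 H2A, 1 H1, 1 H2B and 0 H3 or H4 probes, and no difference between families was tested. No tested H3 or H4 probe had a positive change. The medians stayed negative in every family under each scaling tried.

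HIST1H2BF had the largest fall, and its probe reads the stem-loop end printed above. Its level was 2.32 on both siCONT arrays with mock and -0.65 and -0.75 with TSA. The change was -3.02 (SE 0.16, limma adjusted p = 3.04e-04, and 0.0400 with the siCONT arrays averaged). HIST1H1B, a linker histone of dividing cells, read 2.30 and 2.25 with mock and -0.39 and -0.42 with TSA, a change of -2.68 (SE 0.17). In both genes the arrays of the groups lay far apart.

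HIST1H2AL, a cluster H2A gene, gave 0.00 and 0.09 with mock against -2.37 and -2.80 with TSA, and its change was -2.63 (SE 0.22). The largest falls among H3 and H4 were those of HIST1H3D (6.34 on both arrays with mock, 4.66 and 4.59 with TSA, change -1.72) and HIST1H4D (4.31 and 4.25 against 2.68 and 2.65, change -1.62). HIST1H4C, the brightest H4 probe, moved from 9.27 and 9.25 to 8.20 and 8.14, a change of -1.09. Of the spots on all arrays 0 were saturated.

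Under TSA in siCONT cells 67 of the 72 tested cluster probes had negative changes, so a negative sign is not particular to the probes and pairs that follow. All 6 stem-loop probes had negative changes. Beside HIST1H2BF these were HIST1H2BE (fallen below background, at least 2.30-fold lower), HIST1H2AI at -1.79, HIST1H4K at -1.16, HIST2H3A at -1.10 and HIST1H3H at -0.85. The last did not pass the 2-fold limit, while the other HIST1H3H probe, from base 199, was at -1.57 and was called. Of the 8 pairs with a shared octamer 7 had both genes measured under TSA in siCONT cells, and both changes were negative in each. The pairs farthest apart were HIST1H2AD at -0.87 beside HIST1H2BF at -3.02, and HIST1H2AJ at -1.79 beside HIST1H2BM at -0.39. The closest were HIST1H2AE at -0.69 beside HIST1H2BG at -0.63, and HIST2H2AC at -1.56 beside HIST2H2BE at -1.80. These differences were not tested.

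UHRF1 depletion alone changed few histone probes. Under mock, 1 of 73 tested cluster probes was called higher and 2 lower, against 3.13% and 0.987% of all probes tested. The cluster median was -0.39, against -0.10 for all probes. All 17 H4 probes had negative changes, between -0.71 and -0.11, and none was called. After averaging the siCONT arrays limma called 0 cluster and 0 variant probes (5 cluster probes and 1 variant probe at an unadjusted p below 0.05 and 2-fold) and 0.0223% of all probes.

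The probe that rose was that of HIST1H1A, a linker histone found in dividing and stem-like cells. It was below background on all 4 siCONT arrays, at -4.62 and -5.68 with mock and -5.90 and -5.95 with TSA, and above background on all 4 siUHRF1 arrays, at 0.22 and -1.43 with mock and -0.62 and -1.58 with TSA. The groups did not overlap under either agent. Measured against the lowest reliable signal it was at least 6.93-fold higher under mock, a call lost with the siCONT arrays averaged, and at least 6.22-fold higher under TSA. It entered these tests only through the siUHRF1 arrays, so no p-value is given as support. It was the brighter with siUHRF1-1 under both agents.

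The 2 probes that fell, of HIST2H2AC and HIST2H2BE, belong to 1 head-to-head pair, whose shared octamer window is printed above. HIST2H2AC read 5.31 and 5.26 in siCONT and 4.16 and 4.38 in siUHRF1, a change of -1.02 (SE 0.15, adjusted p = 0.0208). The HIST2H2BE probe from base 72 read -0.67 and -0.63 in siCONT and -1.84 and -1.55 in siUHRF1, a change of -1.04 (SE 0.14, adjusted p = 0.0163). Both lie just beyond the 2-fold limit, and neither was called with the siCONT arrays averaged.

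With UHRF1 depletion and TSA together, most called cluster probes were lower. Against siCONT with mock, 33 of 76 tested cluster probes fell (43.4%), against 11.1% of all probes tested. The 8 that rose (10.5%) were a smaller share than the 14.5% of all probes, and HIST1H1A, HIST3H2A and 1 probe each of HIST2H2BE and HIST2H2BF among them were not above background on both siCONT arrays with mock. The cluster median was -0.86 and that of all probes -0.14. With the siCONT arrays averaged, 33 were called, 29 lower and 4 higher, beside 15.4% of all probes in either direction. The 4 higher were the same probes of HIST1H1A, HIST3H2A, HIST2H2BE and HIST2H2BF, which entered the test only through the arrays with both treatments. The falls covered 10 of 17 H4, 9 of 14 H3, 9 of 19 H2A, 3 of 21 H2B and 2 of 5 H1 probes. The rises covered 4 H2A, 2 H2B and 2 H1 probes and 0 H3 or H4 probes.

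**Figure D2:**
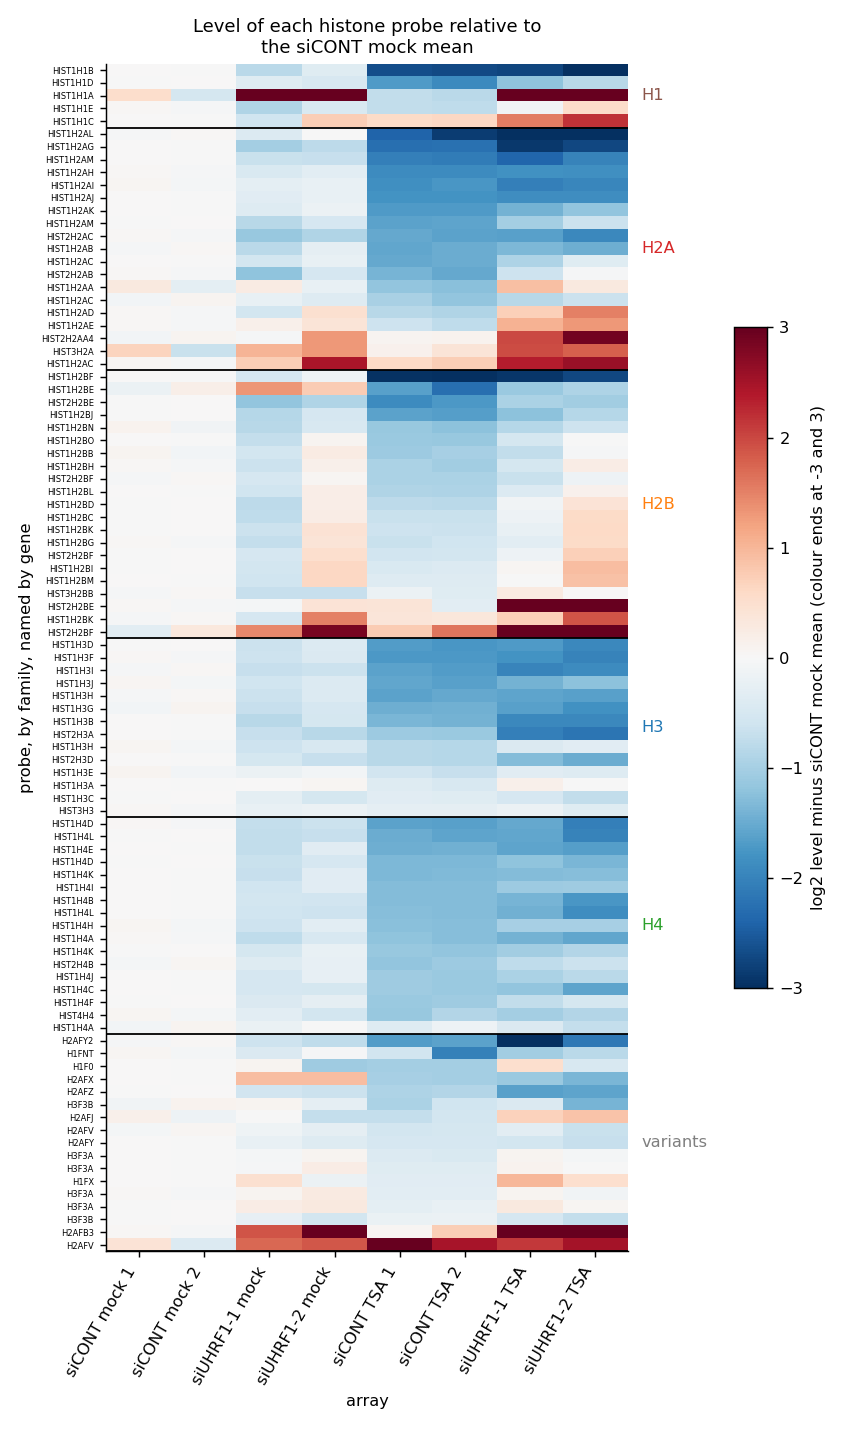
Level of each histone probe detected in at least 1 group on each of the 8 arrays (columns), as the log2 difference from the siCONT mock mean, with rows grouped by family. H3 and H4 rows are blue on all 4 TSA arrays with few exceptions, and H2B rows are paler or red on the siUHRF1-2 arrays.

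Among the falls, HIST1H2AL reached -2.96 and -3.27 in siUHRF1 with TSA, a change of -3.16 (SE 0.22) from siCONT with mock. HIST1H1B reached -0.47 and -0.71 and changed by -2.87 (SE 0.17), HIST1H2BF by -2.83 (SE 0.16) and HIST1H2AG by -2.81 (SE 0.13). HIST2H3A, a gene of the chromosome 1 cluster, was the H3 probe with the largest fall, from 6.28 and 6.26 to 4.22 and 4.08, a change of -2.12 (SE 0.12). All of these remained called with the siCONT arrays averaged.

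Other falls were -2.19 for the HIST1H2AM probe from base 397, -1.93 for both HIST1H3B and HIST1H3I, and -1.79, -1.78 and -1.62 for HIST1H4D, HIST1H4L and HIST1H4E. Of the remaining H2B falls, HIST1H2BJ changed by -1.04 and HIST1H2BE was at least 1.90-fold lower, its siUHRF1 arrays with TSA being below background.

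Among the rises, HIST1H1C, a linker histone that also makes polyadenylated mRNA, read 6.51 and 6.49 in siCONT with mock, 5.90 and 7.23 in siUHRF1 with mock, 7.08 and 7.13 in siCONT with TSA, and 8.03 and 8.68 with both. Its arrays with both lay above all others. The change was 1.85 (SE 0.44, adjusted p = 0.0152, and 0.106 with the siCONT arrays averaged). HIST1H1A was at least 4.91-fold higher, and HIST1H1D fell by 1.02 on the log2 scale in the same comparison.

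HIST2H2AA4, an H2A gene with an almost identical neighbouring copy that the probe may not separate, read 1.43 and 1.61 in siCONT with mock and 3.51 and 4.40 with both, a change of 2.44 (SE 0.48). HIST1H2AE rose from 0.76 and 0.68 to 1.76 and 2.01, a change of 1.17 (SE 0.15). HIST3H2A rose from -2.83 and -4.16, with 1 of these arrays below background, to -1.55 and -1.70. It entered this test only through the arrays with both treatments, so no size or p-value is given as support. HIST2H2AA4 and HIST1H2AE were not called with the siCONT arrays averaged.

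Some genes had probes with unlike changes. The downstream HIST2H2BE probe, from base 1109, was below background on 6 arrays, between -5.83 and -5.08, and above it on the siUHRF1 arrays with TSA, at -2.36 and -1.85. It was at least 2.45-fold higher with both treatments than in siCONT with mock. It entered the test only through the group in which it was bright, so no p-value is given as support. The probe from base 72 of the same gene had a change of -0.998 that was not called.

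HIST2H2BF had probes of 2 transcripts that lie apart on chromosome 1. Its probe from base 1748 (chr1:149397120-149397179), whose window with AATAAA is printed above, read -5.69 and -5.05 in siCONT with mock, -3.94 and -2.53 in siUHRF1 with mock, -4.62 and -3.77 in siCONT with TSA and -1.84 and -1.06 with both. With both it was at least 3.85-fold higher than in siCONT with mock. The probes from bases 220 and 311 of the other transcript (chr1:149783649-149783703 and chr1:149783558-149783617) changed by 0.28 and -0.41 and were not called. The probe from base 566 of the first transcript was above background on no array, so the probe from base 1748 has no measured partner on its own transcript.

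The HIST1H2AC probe from base 1100 (chr6:26138822-26138881) lies on another transcript than the probes from bases 88 and 30 (chr6:26124461-26124520 and chr6:26124403-26124462), and all were above background throughout. The first read -0.21 and -0.31 in siCONT with mock, 0.49 and 2.20 in siUHRF1 with mock, 0.34 and 0.47 in siCONT with TSA and 2.09 and 2.33 with both. The change with both was 2.47 (SE 0.50, adjusted p = 0.00913, and 0.0738 with the siCONT arrays averaged), while the probes from bases 88 and 30 changed by -0.65 and -0.73 and were not called. In siCONT cells under TSA, the latter fell by 1.51 and 1.08 and were called, and the downstream probe changed by 0.66 and was not. For HIST1H2BK the probe from base 660 had a change of 1.30 and that from base 141 one of 0.19, neither called.

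**Figure D3:**
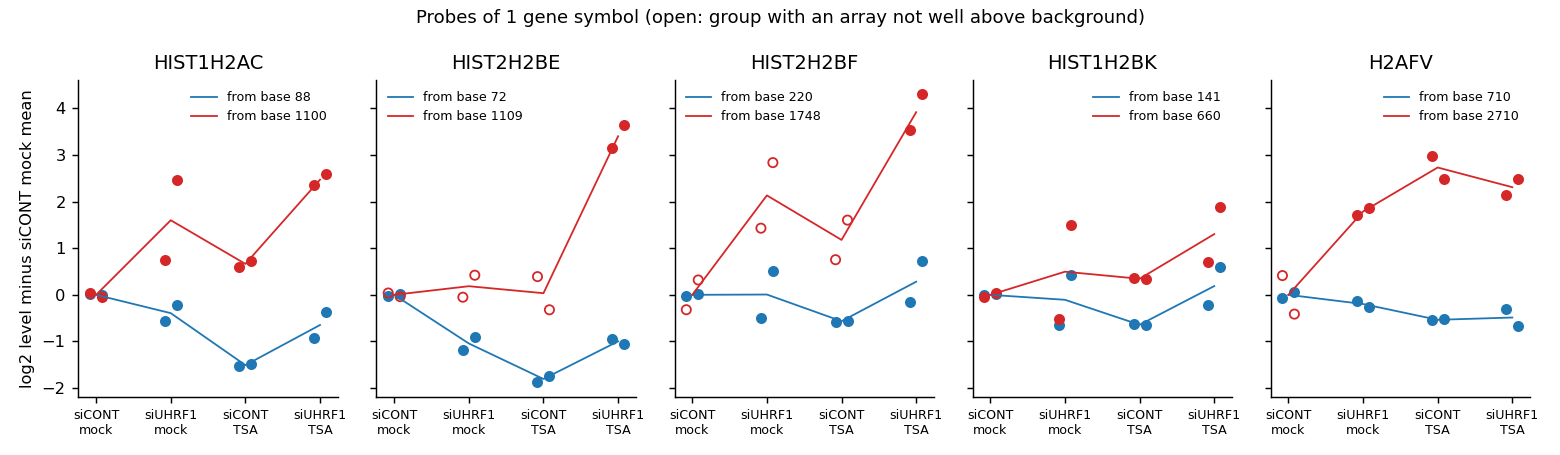
Log2 level minus the siCONT mock mean of the same probe (y axis) in the 4 groups (x axis) for probe pairs of 5 gene symbols, those of HIST1H2AC, HIST2H2BF and H2AFV on different transcripts; points are arrays, lines join group means and open points mark groups with an array not well above background. The red probes of HIST1H2AC, HIST2H2BE and HIST2H2BF lie above the blue ones in siUHRF1 with TSA, and rises from open points have no measured size.

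These pairs were chosen after their values were seen. Of 13 genes with at least 2 tested probes, 10 had them above background on all arrays. Over these 10 the gap between the changes of a gene's probes with both treatments ran from 0.14 for HIST1H4L and 0.18 for the 4 probes of H3F3A to 1.36 for HIST1H2AM and 3.20 for HIST1H2AC. The gaps were not tested, and those of HIST2H2BE, HIST2H2BF and H2AFV have no measured size.

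Of 6 cluster genes known for polyadenylated mRNA, taken by their brightest probes, 3 fell under TSA in siCONT cells, 1 fell with UHRF1 depletion alone and 1, HIST1H1C, rose with both treatments. After averaging the siCONT arrays 0 of these calls remained (adjusted p between 0.0702 and 0.376). The shares over all probes are those given for each comparison. For HIST1H2AC and HIST2H2BE the brightest probes were those from bases 88 and 72. Their downstream probes, described above, were called higher with both treatments and are not in these counts. Of the 6 genes, HIST1H2BD and HIST4H4 were not yet described. HIST1H2BD, an H2B gene, read 3.30 and 3.33 in siCONT with mock, 2.54 and 3.53 in siUHRF1 with mock, 2.53 and 2.50 in siCONT with TSA and 3.22 and 3.73 with both, and was called in no comparison. HIST4H4, the single gene of its locus, fell by 1.01 under TSA in siCONT cells and had a change of -0.94 with both treatments that was not called.

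Under TSA, UHRF1 depletion raised 9 of 75 tested cluster probes and lowered 1, against 5.39% and 2.87% of all probes tested, and the cluster median was 0.35 against 0.00. The rises were 6 of 19 H2A, 2 of 20 H2B and 1 H1 probe and the fall was HIST2H3A, at -1.02. Among the rises, HIST1H1A, HIST1H2AA and the downstream probes of HIST2H2BE and HIST2H2BF were below background on both siCONT arrays with TSA. These probes entered the test only through the group in which they were bright, so the share of rises is not free of that choice. The H2A median was 0.39, with 13 of 19 positive, and 0.04 with median scaling. Scaled by the median of each array the cluster median was -0.01 and that of all probes -0.35. With the siCONT arrays averaged, 1 cluster probe was called, the downstream HIST2H2BE probe, and 0.692% of all probes.

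HIST1H2AD was the H2A gene with the second largest change here, after HIST2H2AA4 (change 2.34). It read 3.41 and 3.33 in siCONT with TSA and 4.96 and 5.75 in siUHRF1 with TSA, a change of 1.98 (SE 0.38, adjusted p = 0.0220). HIST1H2AA, listed as testis-enriched, was below background in siCONT with TSA and at a mean of -2.31 ± 0.43 (SD, n = 2) in siUHRF1 with TSA, at least 2.70-fold higher. Both groups of arrays lay apart in each gene. All 20 H2B probes had positive changes, with a median of 0.83, but only the downstream probes of HIST2H2BE and HIST2H2BF were called. With median scaling 19 of 20 were positive, with a median of 0.47.

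In UHRF1-depleted cells TSA lowered 22 of 76 tested cluster probes (28.9%) and raised 4, against 9.01% and 11.7% of all probes tested. With the siCONT arrays averaged 23 were called, 22 lower and 1 higher, beside 17.6% of all probes in either direction. The falls were 7 of 19 H2A, 7 of 14 H3, 5 of 17 H4, 2 of 21 H2B and 1 of 5 H1 probes, led by HIST1H2AL at -2.96, HIST1H2BF at -2.52 and HIST1H1B at -2.28. HIST1H3F had the largest fall among H3 probes here, at -1.37. The rises were HIST1H1C at 1.79, HIST2H2AA4 at 1.81 and the downstream probes of HIST2H2BE and HIST2H2BF. The HIST2H2BE probe was at least 2.82-fold higher. For the HIST2H2BF probe no size is given, since only 1 of its 2 mock arrays was above background. These downstream probes entered the test only through the arrays with TSA, and the rise left with the siCONT arrays averaged was 1 of them. The H2B median was 0.28 and turned to -0.12 with median scaling. With the percentile taken over detected probes only, the split was 14 lower and 7 higher.

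The change under TSA was itself tested for a difference between siUHRF1 and siCONT cells. Of 76 cluster probes 9 had a less negative or more positive change in siUHRF1 cells (11.8%) and 0 the opposite, against 2.83% and 2.07% of all probes tested. Among those above background on all arrays the largest was that of HIST2H2AB, with changes of -1.47 in siCONT and 0.53 in siUHRF1 cells. Averaging the siCONT arrays left 0 cluster probes (13 at an unadjusted p below 0.05 and 2-fold), and 0% of all probes.

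The cluster families differed in how far the 2 siRNAs lay apart. Over the 18 H2B probes above background on all arrays, the level with siUHRF1-2 minus that with siUHRF1-1 had a median of 0.81 under mock, with 17 of 18 positive, and of 0.62 under TSA, with 16 of 18 positive. The difference was over 0.5 in 13 of 18 (72.2%) under each agent, against 13.1% of all 19898 such probes under mock and 8.34% under TSA. Of the 17 H2A probes 15 were positive under mock and 12 under TSA, and 5 (29.4%) and 4 (23.5%) exceeded 0.5. Of the 4 H1 probes 1 and 2 exceeded it, and of the 14 H3 and 17 H4 probes 0. Between the siCONT arrays 0 of the 18 H2B probes exceeded 0.5. Each siRNA was carried by 1 array per agent, in the same slide column under both agents, so these are descriptions with no test.

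HIST1H2BM, an H2B gene, read 4.11 and 4.10 in siCONT with mock, 3.49 with siUHRF1-1 and 4.73 with siUHRF1-2. Under TSA it read 3.71 and 3.72 in siCONT, 4.08 with siUHRF1-1 and 4.99 with siUHRF1-2. The siRNAs thus stood on opposite sides of siCONT under mock and on the same side under TSA. HIST1H2BI gave 3.76 and 3.77, 3.22 and 4.40 under mock, in the same order. Both probes read the middle of the transcript, and H2B probes resemble each other there, as these 60-base probes show, so that 1 RNA may bind several of them and the 18 probes are not independent.
HIST1H2BM, chr6:27783003-27783062 (hg19, plus strand): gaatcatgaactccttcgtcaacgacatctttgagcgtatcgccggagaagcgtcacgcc
HIST1H2BI, chr6:26273375-26273434 (hg19, plus strand): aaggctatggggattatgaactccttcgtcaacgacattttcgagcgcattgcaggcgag
Each is most like a HIST2H2BF probe, with 91.8% identity over 49 overlapping bases for HIST1H2BM and 86.4% over 59 for HIST1H2BI. Of the 25 H2B probes 6, and of the 19 H4 probes 6, had an identity of at least 90% with a probe of another histone gene, and 0 in the other families. Most H3 probes lay not far below that limit, and the H3 median of 84.3% was above the 75% of H2B and the 68.5% of H4. Some H2A probes lay just below it too. HIST1H2AD and HIST1H2AK had 88.3% identity with each other over 60 bases, and HIST1H2AJ and HIST1H2AH reached 87.9% and 87.8%. One RNA may therefore bind several H3 probes, or several of these H2A probes, too.

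**Figure D4:**
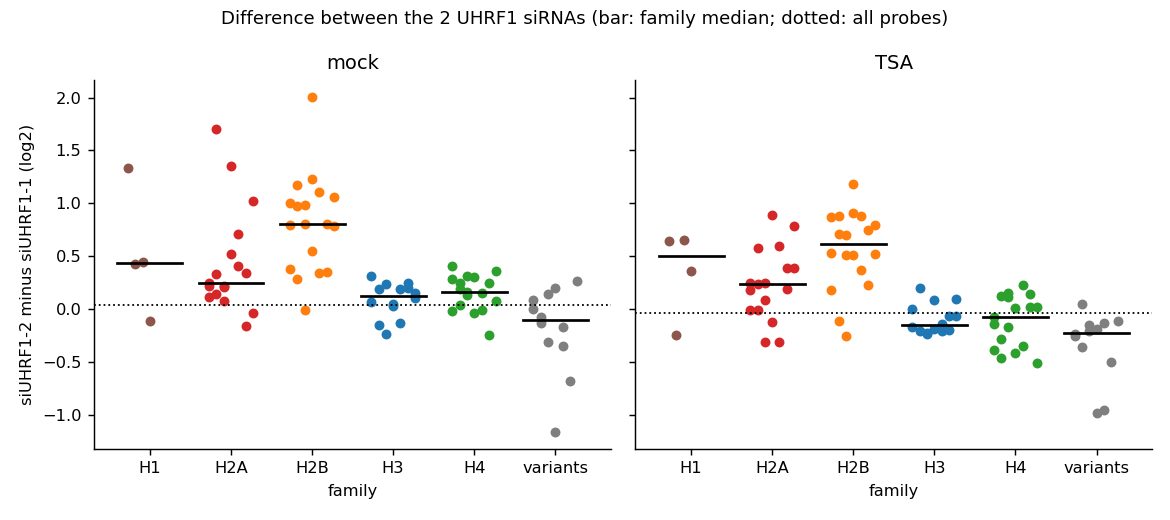
Level with siUHRF1-2 minus level with siUHRF1-1 (log2, y axis) for each histone probe above background on all arrays, by family (x axis), under mock (left) and TSA (right); bars are family medians and the dotted line is the median of all such probes. The H2B medians are 0.81 and 0.62, and no H3 or H4 probe exceeds 0.5.

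Few variant probes were called. Under TSA in siCONT cells 15 of the 16 tested had negative changes, and their median stayed between -0.57 and -0.30 under each scaling. With both treatments 2 of 17 tested variant probes rose (11.8%) and 3 fell (17.6%), with a median of 0.00 that became -0.40 with median scaling and 0.22 with quantile normalization. UHRF1 depletion alone raised 1 of 16, the H2AFV probe from base 2710, and lowered 0, and under TSA it raised 3 of 16 (18.8%) and lowered 0. The interaction held 3 of 17, 1 higher and 2 lower. With median scaling the combined comparison gave 2 higher and 7 lower. TSA in UHRF1-depleted cells raised 1 and lowered 2 of 17. With the siCONT arrays averaged the called variant probes numbered 4 with both treatments, 1 for TSA in siCONT, 1 for TSA in siUHRF1 cells and 0 otherwise. The rises with both treatments were H2AFB3 and the H2AFV probe from base 2710, and that for TSA in siCONT was the same H2AFV probe. These, the rise with UHRF1 depletion alone, H2AFB3 under TSA and the H2AFJ rise in siUHRF1 cells entered only through the brighter group. The counts are thus not free of that choice. The shares of calls in each direction over all probes are those given above for each comparison.

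H2AFX, the H2A variant phosphorylated at DNA breaks, had opposite signs under the 2 treatments. It read 4.02 on average in siCONT with mock, 4.94 with both siRNAs under mock, 3.03 and 3.01 in siCONT with TSA, and 2.91 and 2.65 with both. Its arrays with UHRF1 depletion under mock lay above all others, with a change of 0.92 that did not pass the 2-fold limit. TSA lowered it by 1.00 in siCONT cells (adjusted p = 0.00250, and 0.173 with the siCONT arrays averaged), a call also lost with the percentile over detected probes, and by 2.16 in siUHRF1 cells (adjusted p = 1.97e-04, and 0.00529 with the siCONT arrays averaged). The difference between those was -1.16 (adjusted p = 0.0278, and 0.506 with the siCONT arrays averaged).

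H2AFZ, the H2A variant at active promoters, read 7.13 and 7.15 in siCONT with mock, 6.57 and 6.49 in siUHRF1 with mock, 6.20 and 6.25 in siCONT with TSA and 5.51 and 5.56 with both. The 4 groups did not overlap, and the change with both was -1.60 (SE 0.11, adjusted p = 2.23e-04, and 0.0196 with the siCONT arrays averaged). H2AFY and H2AFY2 encode the macroH2A proteins. H2AFY changed by -0.62 with both and was called in no comparison, whereas H2AFY2 read -1.19 and -1.12 in siCONT with mock and -5.47 and -3.31 with both, where 1 of the 2 arrays was above background. It was called lower, but not with the siCONT arrays averaged. It entered this test only through siCONT with mock, where it was bright, so no size or p-value is given as support.

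H3F3A and H3F3B encode the same H3.3 protein. The 4 H3F3A probes changed by 0.00 to 0.18 with both treatments, and the brightest read between 8.46 and 9.06 on all arrays. The brighter H3F3B probe read 6.40 and 6.43 in siCONT with mock and 5.92 and 5.71 with both, a change of -0.60. No H3.3 probe was called in any comparison.

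Among the linker variants, H1F0, the H1 of resting cells, read 3.60 and 3.58 in siCONT with mock, 3.68 and 2.53 in siUHRF1 with mock, 2.57 and 2.59 in siCONT with TSA, and 4.09 and 3.11 with both. It was higher with siUHRF1-1 than with siUHRF1-2 under both agents, and it was called in no comparison. H1FX rose by 1.09 with UHRF1 depletion under TSA (0.59 on both siCONT arrays, 1.93 and 1.43 in siUHRF1, adjusted p = 0.0377). H1FNT, the testis H1, lay between -4.89 and -2.80, near background, and was not called.

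Some dim variant probes changed. H2AFB3, a short H2A variant of testis, was below background on all siCONT arrays (-5.57 to -4.80). It was at -3.66 and -2.24 in siUHRF1 with mock, and at -1.82 and -2.11 with both, at least 2.69-fold higher than in siCONT with mock. It entered the test only through the group with both treatments, so no p-value is given as support. H2AFJ, an H2A variant of secretory epithelium, read -2.51 and -2.83 in siCONT with mock and -1.98 and -1.82 with both, and rose by 1.39 with UHRF1 depletion under TSA. H2AFV, a close relative of H2AFZ, had a bright probe from base 710 that was not called in any comparison. Its probe from base 2710 was below background in siCONT with mock and at -1.98 and -2.48 with TSA, at least 2.24-fold higher.

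**Figure D5:**
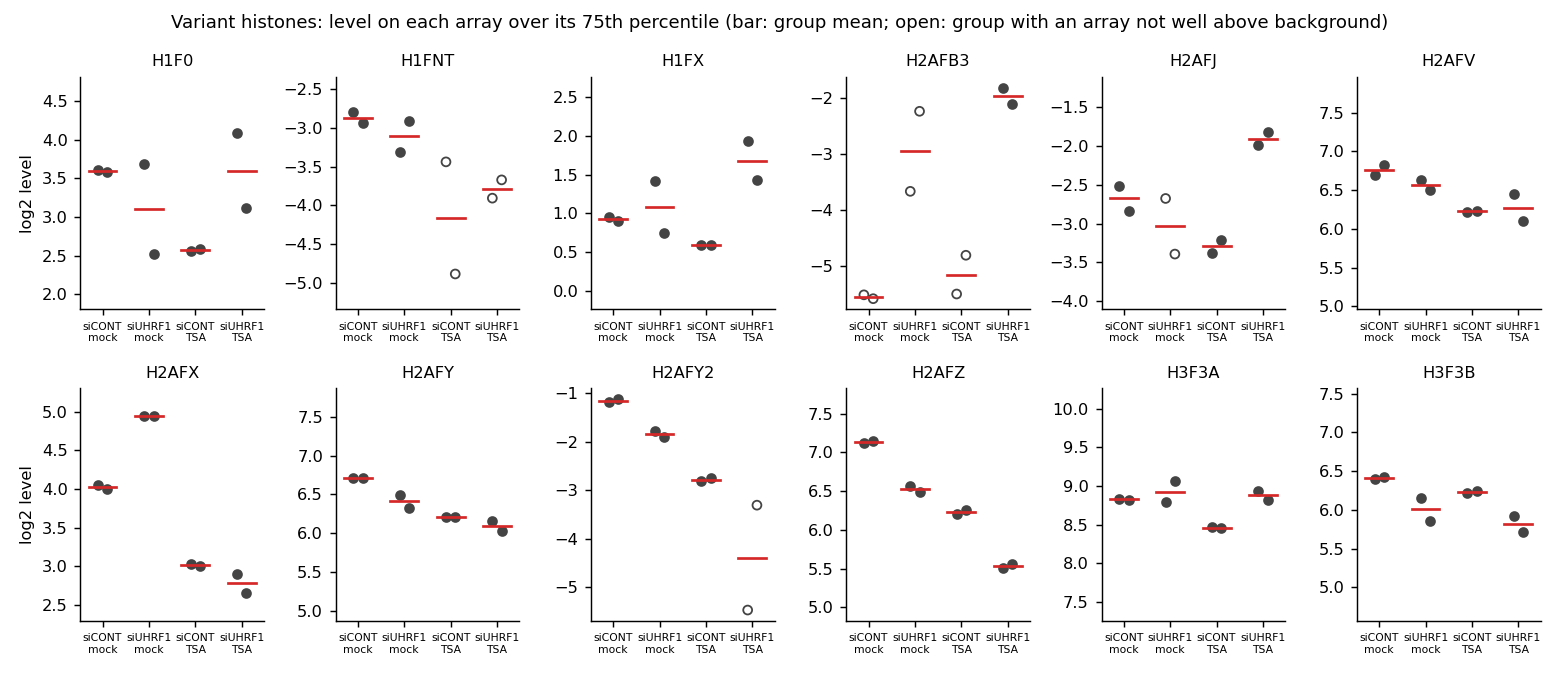
Log2 level relative to the array's 75th percentile (y axis) on each array in the 4 groups (x axis) for the brightest probe of each of 12 variant histone genes; red bars are group means and open points mark groups with an array not well above background. H2AFX is highest in siUHRF1 with mock, and H2AFZ is lowest in siUHRF1 with TSA.

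Of the 9 histone genes listed as testis-enriched, 7 had a probe, and 3 of these were above background on no array. HIST3H3, the brightest of them, lay between 6.23 and 6.63 on all arrays and was called in no comparison. Its probe had 85% identity over 40 bases with that of HIST2H3D, so it may not read HIST3H3 alone. For UHRF1 depletion under TSA 2 of 3 tested genes were called higher, HIST1H2AA and H2AFB3 (5.39% of all probes). With both treatments 1 of 4 was, H2AFB3 (14.5% of all probes), also with the siCONT arrays averaged. Both genes entered these tests only through the siUHRF1 arrays with TSA, so the calls are not given as support. No other listed gene was called in any comparison.

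Genes that act on histone mRNA were measured beside their targets. Of 22 genes of histone transcription, 3′ end processing and decay, 21 were tested with both treatments, and 5 fell and 0 rose (11.1% and 14.5% of all probes), with a median of -0.64. TSA in siCONT cells lowered 2 (8.21% of all probes) and UHRF1 depletion alone 1 (0.987%). Averaging the siCONT arrays left 2 for both treatments, CDK2 and SRRT, and 0 for either alone. SLBP, the stem-loop binding protein, read 4.61 and 4.62 in siCONT with mock, 5.11 and 4.56 in siUHRF1 with mock, 3.85 and 3.92 in siCONT with TSA and 3.47 and 3.20 with both, a change of -1.28 (SE 0.20, adjusted p = 0.00369, and 0.0658 with the siCONT arrays averaged). NPAT, the coactivator of the histone clusters, changed by -0.34 and was not called. CDK2, the kinase that activates NPAT, changed by -1.84, and LSM11, a subunit of the U7 particle that cuts histone pre-mRNA, was at least 3.31-fold lower (adjusted p = 0.0808 after averaging).

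Histone chaperones, which carry histones to chromatin, fell in part. With both treatments 8 of 24 fell and 0 rose, with a median of -0.87. TSA in siCONT cells lowered 4 and raised 1, and UHRF1 depletion alone lowered 1, with the same shares over all probes. After averaging the siCONT arrays 6 of the 8 remained, without HAT1 and NASP, and 0 for either treatment alone. ASF1B, the replication-linked H3-H4 chaperone, read 2.85 and 2.83 in siCONT with mock, 3.06 and 2.76 in siUHRF1 with mock, 1.30 and 1.19 in siCONT with TSA and 1.11 and 0.57 with both, where it had fallen by 2.00 (SE 0.21). CENPA, the centromeric H3 variant on the same list, changed by -2.56, and HJURP, its chaperone, by -3.03 (SE 0.17, adjusted p = 1.42e-04). HIRA and DAXX, chaperones of H3.3, changed by -0.65 and -0.33 and were not called.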

How the data were processed

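RNA of 8 DLD1 samples, labelled with Cy3 by the Low Input Quick Amp kit, was hybridised to Agilent SurePrint G3 v2 arrays. Per the file headers, the deposited intensity of each spot was extracted by the authors with Feature Extraction 10.7.3.1 (10.7 in the submitters' processing notes), which subtracted the local background without scaling between arrays. The series value table held the same intensity, within 0.995 to 1.00 times. Probe coordinates are hg19. GeneSpring GX is named in the methods, and its normalization is not given in the sources used here.

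Spots of a probe were averaged, without outlier spots. The log2 processed intensity minus the array's 75th percentile was fitted with limma 3.58.1 (R 4.3.3) as 4 group means over 8 arrays, with 24589 probes in all and 4 residual degrees of freedom. The fit was tested on simulated data. Alternatives were other scalings (quantile, median, 75th percentile over detected probes), normexp background (offset 50), other filters, the methods' t-test, replicate blocks, the series value table and leaving out each array. With 2 arrays per group, their number limits precision. Neither labels nor methods state separate cultures for the siCONT arrays, so p-values may measure technical spread. The pairing of replicate numbers was checked by the correlation of deviations over 19898 probes, which was 0.34 between the siUHRF1 groups, whose same numbers are the same siRNA, and between -0.06 and 0.07 for the other pairs of groups.

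"At least N-fold" sets the brighter group's mean against the lowest reliable signal of the dimmer group's arrays or the probe's own signal, if higher. Named genes were the detected variants, the largest called changes per cluster family without overlap of arrays, cluster genes with known polyadenylated mRNA, and the listed members of the processing and chaperone lists with the 2 largest called changes of each list. Lists with several probes per gene used the brightest. Members and lists were chosen with earlier results of these data known. Motifs were searched on both strands.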

Additional observations from a re-analysis of the deposited data

Results flagged for a closer look

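In 12 histone probes the change under TSA differed between siUHRF1 and siCONT cells by the interaction term of the limma fit over 8 arrays (adjusted p between 0.0151 and 0.0474). With the siCONT arrays averaged 0 of the 12 passed (adjusted p between 0.255 and 0.538). The fitted differences, siUHRF1 minus siCONT, were 3.18 for the HIST2H2BE probe from base 1109, which was below background in 3 of the 4 groups so that this is no measured size, 1.85 for that from base 72, 1.99 for HIST2H2AB, 1.76 for H2AFJ, 1.58 for HIST1H2AE, 1.43 for the HIST1H2AM probe from base 327, 1.27 for HIST1H2BJ, 1.20 for HIST1H1D, 1.09 for HIST3H2BB and 1.03 for the HIST1H3H probe from base 413. They were -1.16 for H2AFX and -2.21 for the H2AFV probe from base 2710, which was below background in siCONT with mock, so that this is no measured size either. The count of 12 holds these dim probes, and the HIST2H2BE probe from base 1109 entered the test only through siUHRF1 with TSA. The groups hold 2 arrays each, so no array was examined as an outlier within its group.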

How the results depend on the processing

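No called histone probe reversed its direction under any alternative that was run. The series value table left all 302 named probe changes on their side of the threshold, and gave 42 cluster probes for both treatments against 41. Over the 302 named probe changes, averaging the siCONT arrays took 59 out of the calls, normexp background correction 40, removing the filter on dim probes 20, quantile normalization 15, the percentile over detected probes 15 and median scaling 9, while median scaling added 16. The slide could not be fitted as a block, since all arrays lay on 1 slide. The causes of the changes below were not tested.

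The number of cluster probes called for UHRF1 depletion under mock, 3 as reported, was 0 with the siCONT arrays averaged, without the filter and by the methods' t-test after Benjamini-Hochberg adjustment, 1 with the percentile over detected probes and with normexp, and 13 with no fold minimum. For TSA in siCONT cells 46 became 4 with the siCONT arrays averaged. For both treatments 41 became 27 by the adjusted t-test of the methods. For UHRF1 depletion under TSA 10 became 1 with the siCONT arrays averaged, 6 with normexp, 6 among probes above background on all arrays, 5 without the filter, 0 by the adjusted t-test and 20 with no fold minimum. For TSA in siUHRF1 cells 26 became 0 by the adjusted t-test and 44 with no fold minimum. For the interaction 9 became 0 with the siCONT arrays averaged, 4 with median scaling and 1 without the filter.

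The variant counts moved on few probes. For UHRF1 depletion under mock 1 became 0 with the siCONT arrays averaged, with normexp, among probes above background on all arrays, without the filter and by the t-test before and after adjustment, 2 with quantile normalization and 3 with no fold minimum. For TSA in siCONT cells 2 became 1 with the siCONT arrays averaged, with the percentile over detected probes and among probes above background on all arrays, 0 with normexp, 4 by the unadjusted t-test and 6 with no fold minimum. For both treatments 5 became 9 with median scaling (2 higher and 7 lower), 2 with normexp, among probes above background on all arrays and by the adjusted t-test, and 9 with no fold minimum. For UHRF1 depletion under TSA 3 became 0 with the siCONT arrays averaged, with normexp and by the adjusted t-test, 1 among probes above background on all arrays and 5 with no fold minimum, and it was 1 higher and 1 lower with median scaling. For TSA in siUHRF1 cells 3 became 1 with the siCONT arrays averaged, among probes above background on all arrays and by the unadjusted t-test, and 0 by the adjusted one, and the split became 0 higher and 4 lower with median scaling. For the interaction 3 became 0 with the siCONT arrays averaged and 1 with normexp, among probes above background on all arrays and without the filter.

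With the replicate number as a block, the interaction gave 5 cluster probes and 1 variant probe, and with a block for each siRNA arm 0 and 0. The block moved no other count by more than 1.5 times. The numbers mark a shared siRNA in the siUHRF1 groups alone.

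Leaving out 1 array at a time gave 0 to 4 cluster probes for UHRF1 depletion under mock, 42 to 44 for TSA in siCONT, 39 to 42 for both treatments, 2 to 8 for UHRF1 depletion under TSA, 19 to 28 for TSA in siUHRF1 cells and 0 to 20 for the interaction. The variant ranges were 0 to 2, 1 to 4, 5 to 6, 0 to 3, 2 to 3 and 0 to 2. The lone array left in a group was taken to vary like the other groups. For UHRF1 depletion under mock the cluster count was 1 and 0 without siCONT array 1 and 2. For UHRF1 depletion under TSA it was 2 without either siCONT TSA array and 4 without siUHRF1-2. For the interaction it was 0 without either siCONT mock array, 1 and 0 without siCONT TSA array 1 and 2, and 20 without siUHRF1-2 under mock.

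Median scaling moved the median change of all probes from -0.14 to -0.54 for both treatments, from 0.00 to -0.35 for UHRF1 depletion under TSA, from -0.04 to -0.43 for TSA in siUHRF1 cells and from 0.06 to -0.28 for the interaction. The H2B median for both treatments then turned from 0.13 to -0.27, the H1 median from 0.22 to -0.18 and the H4 median for UHRF1 depletion under TSA from 0.05 to -0.30. The low signal of the downstream probes limits their changes to bounds.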
